A study of Bos taurus with 8 samples.

Results

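Immediate early genes are a set of genes whose transcripts appear without new protein synthesis when a cell meets a growth factor, a stress or an injury. The 10 genes FOS, FOSB, JUN, JUNB, EGR1, EGR2, ATF3, NR4A1, IER2 and DUSP1 made up the list studied in lung RNA of newborn calves. They were found by matching the RefSeq accession of every array probe to a bovine gene symbol. The match gave 9 of the 10 genes with 21 probes, and EGR2 was not analysed here. All 21 probes passed the filter on dim probes, so the 9 genes stand among 9867 measured genes with a symbol and 35636 kept probes.

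The study compared 4 cloned Holstein calves that died of respiratory failure with 4 naturally conceived Holstein calves that were healthy, 1 array per animal, all labelled with an age of 4 days. The series text places the death of the clones within 4 days of birth and has the normal calves slaughtered at 4 days, so cloning, disease, manner of death and exact age cannot be told apart between the groups. Nothing in the labels says whether the 4 clones came from the same donor cell line. Lung tissue was measured in bulk, so fewer cells of a type and less RNA per cell cannot be told apart either.

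The products of these genes act in a few steps of a shared response. Mitogen-activated protein (MAP) kinases and calcium signals act on factors already bound at the promoters, such as serum response factor with its ELK partners and CREB. The FOS, JUN and ATF3 proteins then pair through leucine zippers into dimers that bind AP-1 and CRE-like sites, EGR1 and NR4A1 bind other sites, and DUSP1 closes the loop by removing phosphate from MAP kinases. Transcripts of this class are unstable in many cell types, and their level can change soon after a stimulus.

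Values below are log2 processed signal relative to the 75th percentile of the same array, and a difference is clone minus normal. The 75th percentile itself was 10.10 to 10.49 (log2) for clones and 10.58 to 10.89 for normal animals. The share of spots that exceeded background clearly was 78.8% to 80.6% for clones and 80.4% to 83.5% for normal animals. The clone arrays were on 1 slide with 1 scan and the normal arrays on another, so slide, scan and group cannot be told apart. The lung epithelial markers SFTPC, SFTPB, SFTPA1, NKX2-1, AGER and SCGB1A1 were well above background on all 8 arrays. Pairs of arrays correlated at 0.907 to 0.988 within the clones and at 0.984 to 0.989 within the normal animals over the kept probes, so the clones were the less alike.

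No immediate early gene differed past the threshold between the 4 clones and the 4 normal calves (limma, Benjamini-Hochberg adjustment over all kept probes, threshold 0.05). The share of all measured genes that passed was 0.182%, and the share of all kept probes was 0.177%. At an unadjusted p under 0.05 the list had 1 gene of 9, NR4A1, while 13.0% of all genes reached that level. All 9 genes had a positive difference, with a median of 0.75 on the log2 scale, where 48.4% of all genes had a positive difference and the median over all genes was -0.02. The 9 genes moved together from animal to animal, so these 9 signs are not independent, and without clone 2 the count of positive differences was 5 of 9. With quantile normalization 8 of 9 were positive, and with centring on spike-in probes, which lowered the median of all probes by 0.68, 6 of 9 were positive.

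**Figure D1:**
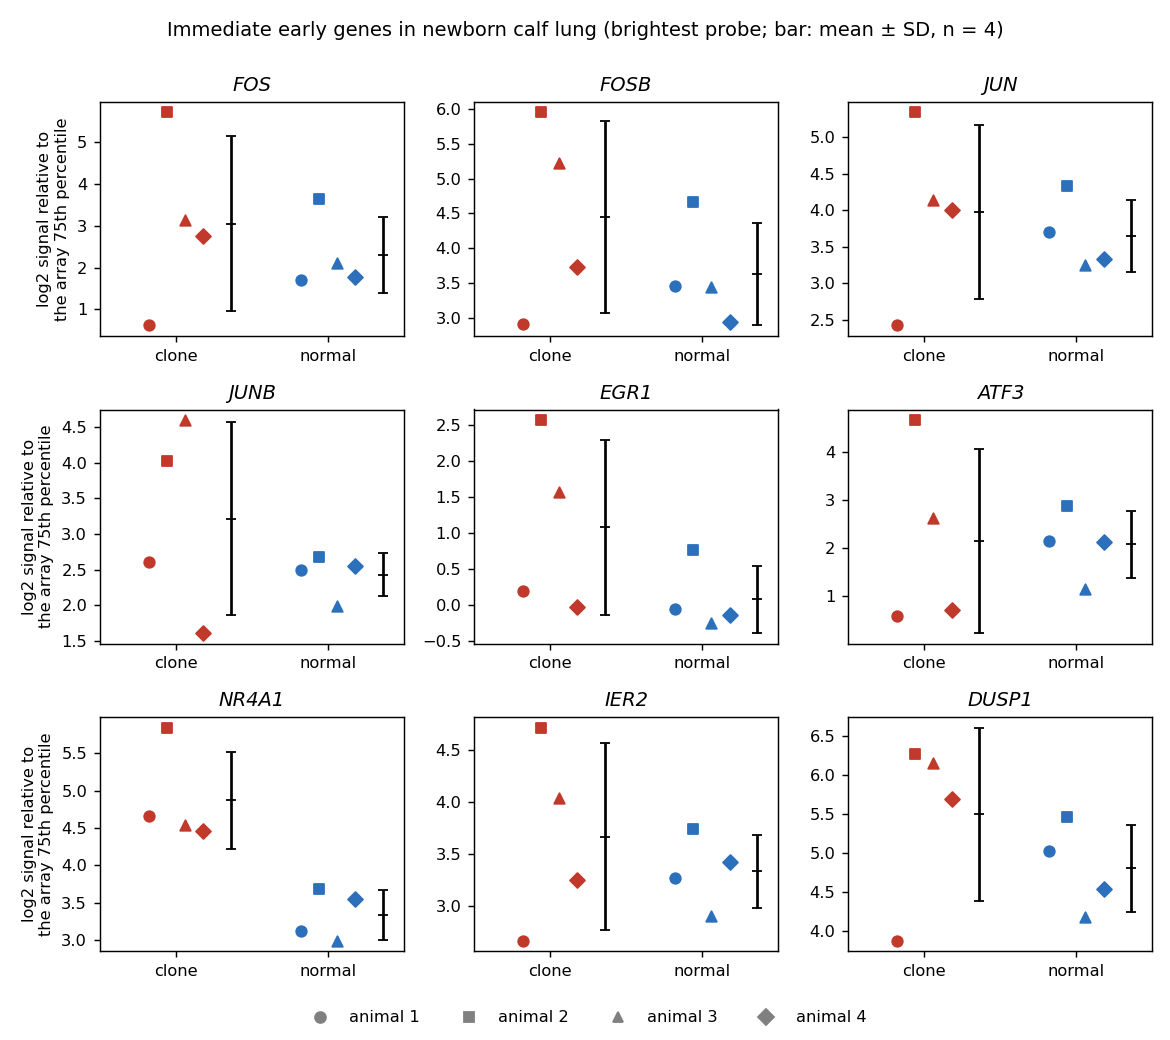
Log2 signal relative to the array's 75th percentile (vertical axes) of the 9 immediate early genes on their brightest probes, with clones in red on the left of each panel and normal animals in blue on the right. Marker shapes give the animal number within a group and are not meant to pair animals, and bars give the mean ± SD (n = 4 each). The groups do not overlap for NR4A1, while clone 2 (square) and clone 3 (triangle) stand above clone 1 (circle) in most other panels.

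NR4A1, an orphan nuclear receptor also known as NUR77, was the gene of the list in which all 4 clones lay above all 4 normal animals. Its level was 4.65, 5.84, 4.54 and 4.47 in clones 1 to 4, against 3.12, 3.68, 2.99 and 3.55 in normal animals 1 to 4. Clone 2 was the highest, and the other 3 clones lay close together. The mean was 4.87 ± 0.65 in clones and 3.34 ± 0.33 in normal animals (SD, n = 4 each), a difference of 1.54 (SE 0.34, 95% interval 0.77 to 2.30) or 2.91-fold, with an unadjusted p of 0.00148 and an adjusted p of 0.131 by limma. Its other 2 probes had differences of 1.68 and 1.57, again without overlap between the groups (adjusted p = 0.141 and 0.187). Every clone lay above every normal animal in 5.05% of all genes. NR4A1 passed without clone 1 (difference 1.61, adjusted p = 0.0464) and with array weights (1.86, adjusted p = 0.00535). In the other 18 alternatives it did not pass, and the difference was 0.86 with spike-in centring (adjusted p = 0.0911). Over all 20 alternatives the adjusted p of NR4A1 ranged from 0.00535 to 0.499.

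FOS, which pairs with JUN proteins in AP-1, spanned the widest range of the list among the clones. Its level was 0.62, 5.71, 3.14 and 2.75 in clones 1 to 4, against 1.71, 3.65, 2.11 and 1.76 in normal animals 1 to 4. Clone 2 was the highest of the 8 animals and clone 1 the lowest, 5.10 apart, while the normal animals spanned 1.94 with normal animal 2 on top. The means were 3.06 ± 2.09 in clones and 2.31 ± 0.91 in normal animals (SD, n = 4 each), a difference of 0.75 with an interval from -1.45 to 2.94 (limma, adjusted p = 0.794). Without clone 2 the difference was -0.14, without clone 1 it was 1.56, and with spike-in centring it was 0.07. Both other FOS probes gave the same order of clones, with differences of 0.70 and 0.98.

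FOSB, a close relative of FOS in the same dimers, followed FOS in the order of the clones on its brightest probe. It measured 2.91, 5.95, 5.22 and 3.73 in clones 1 to 4, against 3.45, 4.66, 3.44 and 2.94 in normal animals 1 to 4. On that probe clones 2 and 3 lay above every normal animal and clone 1 below every one. The difference was 0.83 (interval -0.70 to 2.35, limma adjusted p = 0.654), and it was 0.55 and 0.72 on the other 2 probes. It was 0.33 without clone 2, 1.34 without clone 1 and 0.15 with spike-in centring. On the probe with a difference of 0.55, clone 1 (-0.41) lay inside the normal range (-0.77 to -0.18), and clone 4 (-0.51) was the lowest clone. The dimmest of the 3 FOSB probes was well above background in 3 of 4 clones.

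JUN, the partner that also binds DNA as a pair with itself, had levels of 2.43, 5.34, 4.14 and 4.00 in clones 1 to 4, against 3.70, 4.33, 3.25 and 3.33 in normal animals 1 to 4. Clone 2 lay above every normal animal and clone 1 below every one, so the clones bracketed the normal range. The difference was 0.32 (interval -0.95 to 1.60, limma adjusted p = 0.854), and it was -0.13 without clone 2, 0.84 without clone 1 and -0.36 with spike-in centring.

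JUNB, which activates AP-1 targets less strongly than JUN in many settings, ordered the clones in another way. It measured 2.61, 4.02, 4.60 and 1.61 in clones 1 to 4, against 2.50, 2.68, 1.99 and 2.56 in normal animals 1 to 4. Clone 3 was the highest of all 8 animals and clone 4 the lowest, and clone 1 lay inside the normal range. Its clones spanned 2.99 and its normal animals 0.69. The difference was 0.78 (interval -0.58 to 2.14, limma adjusted p = 0.632), from the gene's only probe. It was 0.32 without clone 3, 1.32 without clone 4 and 0.10 with spike-in centring.

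ATF3, a stress-induced factor that can repress as well as activate, had clones on both sides of the normal range. Its level was 0.60, 4.66, 2.63 and 0.72 in clones 1 to 4, against 2.16, 2.87, 1.17 and 2.14 in normal animals 1 to 4. Clone 2 was above every normal animal, and clones 1 and 4 were below every one. The difference was 0.07 (interval -1.89 to 2.04, limma adjusted p = 0.980), which turned to -0.02 with quantile normalization and to -0.76 without clone 2, and which was 0.59 without clone 1.

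EGR1, a zinc finger factor induced by growth signals and by low oxygen in vascular and lung cells, separated clones 2 and 3 from the other animals. It measured 0.20, 2.56, 1.57 and -0.03 in clones 1 to 4, against -0.05, 0.77, -0.25 and -0.14 in normal animals 1 to 4. Clones 2 and 3 lay above every normal animal, while clones 1 and 4 lay among them. The means were 1.08 ± 1.22 in clones and 0.08 ± 0.46 in normal animals (SD, n = 4 each), and the difference was 1.00 (interval -0.28 to 2.28, limma adjusted p = 0.505). Its second probe gave 1.03 (adjusted p = 0.474). The difference was 0.50 without clone 2 and 0.32 with spike-in centring.

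IER2, a nuclear protein of the early response, measured 2.66, 4.71, 4.04 and 3.25 in clones 1 to 4, against 3.27, 3.74, 2.90 and 3.42 in normal animals 1 to 4. Clones 2 and 3 were above every normal animal and clone 1 below every one. On its second probe clone 4 (-4.34) was below every normal animal too, and clone 3 (-2.63) was higher than clone 2 (-2.92). The difference was 0.33 (interval -0.64 to 1.30, limma adjusted p = 0.792) and 0.14 on the second probe, and it was -0.02 without clone 2, 0.67 without clone 1 and -0.35 with spike-in centring.

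DUSP1, the phosphatase that switches MAP kinases off, measured 3.88, 6.27, 6.15 and 5.69 in clones 1 to 4, against 5.02, 5.47, 4.18 and 4.55 in normal animals 1 to 4. Clones 2, 3 and 4 lay above every normal animal, and clone 1 lay below every one. The difference was 0.69 (interval -0.53 to 1.92, limma adjusted p = 0.638). Without clone 1 it was 1.23, and with array weights it was 1.25 and passed (adjusted p = 0.0254), where clones 1 and 3 had weights of 0.115 and 0.0985 against 2.16 and 1.46 for clones 2 and 4. Without clone 2 the difference was 0.44, and with spike-in centring it was 0.01. Over all 20 alternatives the adjusted p of DUSP1 ranged from 0.0254 to 0.982. The other probes of DUSP1 gave 0.75 and 0.41, and on the last of these clone 4 (0.12) lay inside the normal range (-0.73 to 0.60).

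**Figure D2:**
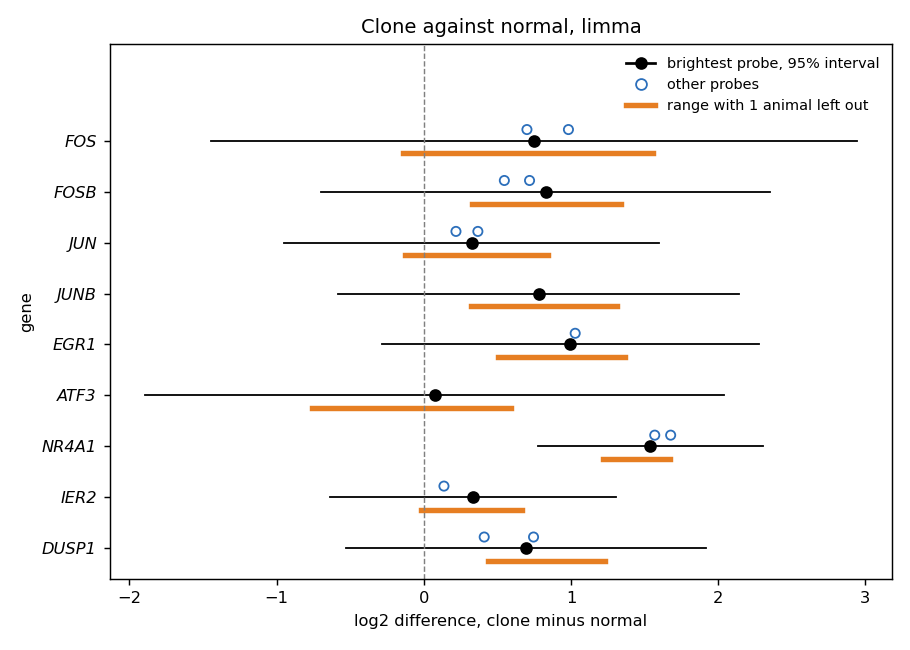
Log2 difference, clone minus normal (horizontal axis), for each of the 9 genes (vertical axis). Black points and lines give the brightest probe with its 95% interval from limma, open blue circles give the other probes, and orange bars give the range with 1 animal left out. The interval of NR4A1 runs from 0.77 to 2.30 and those of the other 8 genes include 0.

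Within the list the clones were more spread than the normal animals. The SD was larger in clones than in normal animals for 9 of 9 genes, with a median SD of 1.22 in clones and 0.49 in normal animals. This is common on these arrays, since the SD was larger in clones for 91.0% of all genes, with medians over all genes of 0.53 in clones and 0.16 in normal animals. Clone 2 was the highest of the 8 animals in 8 of 9 genes, JUNB being the exception, against 10.0% of all genes. It lay above every normal animal in 9 of 9 genes, against 33.9% of all genes. Clone 3 lay above every normal animal in 6 of 9 genes (39.1% of all genes). Clone 1 was the lowest of the 8 in 6 of 9 genes (23.3% of all genes) and below every normal animal in the same number (36.9% of all genes). Relative to the mean of the normal animals, the median over the 9 genes was -0.72, 2.33, 1.20 and 0.10 in clones 1 to 4.

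A smaller spread of the same kind was present among the healthy calves. Normal animal 2 was the highest of the 4 normal animals in 9 of 9 genes, against 30.9% of all genes. Normal animal 3 lay below the other normal animals in 7 of 9 genes, against 31.4% of all genes. Set against the other 3 normal animals, the median over the 9 genes was 0.91 in normal animal 2 and -0.54 in normal animal 3, and between these values in normal animals 1 (-0.08) and 4 (-0.29). The same measure over all genes was 0.03 in normal animal 2 and -0.02 in normal animal 3.

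**Figure D3:**
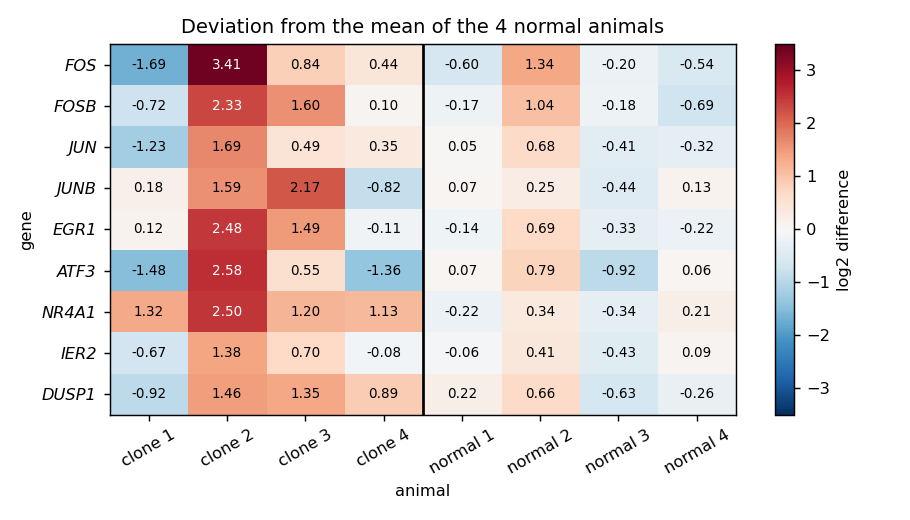
Log2 deviation of each immediate early gene (rows) from the mean of the 4 normal animals, in each animal (columns, clones on the left of the line). Red cells are above that mean and blue cells below it. Clone 2, clone 3 and normal animal 2 are positive in all 9 rows. NR4A1 is the row positive in all 4 clones, and it runs from -0.34 to 0.34 in the normal animals.

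The genes were alike in how their levels rose and fell across animals, with 2 that stood further from the rest. Over the 8 animals, each gene was set against the mean of the other 8 as a description, since all share the same arrays. Pearson's r was 0.97 for IER2, 0.96 for FOSB, 0.95 for EGR1, 0.91 for FOS, 0.90 for JUN, 0.86 for ATF3 and 0.84 for DUSP1. The lowest values were 0.72 for JUNB and 0.63 for NR4A1. In clone 1, NR4A1 deviated from the normal mean by 1.32 where the median of the other 8 genes was -0.82. In clone 4, the deviations were 1.13 for NR4A1 and 0.01 for the median of the others. In clones 2 and 3, NR4A1 exceeded the others by 0.50 and 0.11, and in the normal animals it lay between -0.34 and 0.45 from them.

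The genes most like the list were sought among 8886 genes well above background on all 8 arrays and outside every gene list used. Pearson's r with the mean profile over 8 animals was 0.97 for KCNF1, a potassium channel subunit, 0.94 for RAP2C, a small GTPase, and 0.93 for ZFP36L2, an RNA-binding protein that shortens the life of AU-rich messages. It was 0.91 for TOB1, an antiproliferative protein, 0.91 for PIAS1, 0.90 for TIRAP, an adaptor of Toll-like receptors, 0.90 for NTRK2, a neurotrophin receptor, and 0.88 for SLC26A11. At the other end it was -0.96 for TBX18, -0.94 for LOXL4, a lysyl oxidase relative, -0.93 for SC5D, an enzyme of cholesterol synthesis, and -0.92 for PPM1N. The median over all 8886 genes was -0.04, the lowest decile ended at -0.61 and the highest began at 0.56. The genes named were the extremes of this ranking. A high r does not mean a large change, and some of them varied little. The clones spanned 0.56 for KCNF1, 0.39 for RAP2C and 0.23 for PIAS1, against 5.10 for FOS. The widest spans among the genes named were 4.20 for LOXL4, 2.79 for NTRK2 and 1.97 for TOB1. TOB1 measured 1.45, 3.42, 3.01 and 2.56 in clones 1 to 4, against 2.18, 2.61, 1.97 and 2.49 in normal animals 1 to 4. LOXL4 ran the other way, at 1.41, -2.79, -1.21 and -0.38 in clones 1 to 4, against 1.04, 0.29, 0.94 and 0.67 in normal animals 1 to 4.

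Other genes of the early response and its pathway gave no call. Of 71 such genes in 5 lists, 55 were measured, 35 with a positive and 20 with a negative difference, and the median was 0.19. By limma 0 of the 55 passed and 9 had an unadjusted p under 0.05, 8 higher and 1 lower in clones, where 13.0% of all genes reached that level, 629 higher and 649 lower. Without clone 1 the count that passed was 2, CCN2 and MAF, and without clone 3 it was 2, CCN2 and BHLHE40.

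Among 12 other early transcription factors, 10 had a positive difference and the median was 0.37. BHLHE40, a basic helix-loop-helix repressor also induced by low oxygen, measured 1.19, 0.61, 3.94 and 1.03 in clones 1 to 4, against 0.01, -0.17, -0.07 and -0.29 in normal animals 1 to 4. All 4 clones lay above all 4 normal animals, with clone 3 far above the other clones, and the difference was 1.82 (limma, adjusted p = 0.284). Without clone 3 it was 1.07 and passed (adjusted p = 0.0453). NFIL3, a leucine zipper repressor, differed by 1.61 (adjusted p = 0.236) and KLF4, a zinc finger factor, by -0.85 (adjusted p = 0.527). NR4A2, the closest measured relative of NR4A1, measured -0.08, 2.33, 0.32 and -0.02 in clones 1 to 4, against -0.90, 0.83, -1.01 and 0.54 in normal animals 1 to 4. Unlike NR4A1 its groups overlapped, with clone 2 alone above every normal animal; it differed by 0.77 (adjusted p = 0.661), and whether the 2 receptors differ in their response was not tested.

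Of 16 early effector genes, 12 had a positive difference and the median was 0.45. CCN2, a matricellular protein of connective tissue known as CTGF, ran opposite to the list. Its level was 2.97, 2.85, 1.48 and 3.02 in clones 1 to 4, against 3.91, 4.12, 4.17 and 3.90 in normal animals 1 to 4. Every clone was below every normal animal, as in 4.76% of all genes. The difference was -1.44 (SE 0.34, limma adjusted p = 0.157) and -1.73 on its second probe (adjusted p = 0.0907). Without clone 1 or clone 3 it passed, at -1.57 (adjusted p = 0.0475) and -1.08 (adjusted p = 0.0270). PTGS2, the inducible cyclooxygenase, differed by 1.70 (adjusted p = 0.252) with clones 1, 2 and 3 above every normal animal, and on another probe all 4 clones were above (difference 1.83, adjusted p = 0.165). IER3, an early response protein that modulates cell survival, differed by 1.53 (adjusted p = 0.360).

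The kinases and factors upstream of the list had differences of both signs. Of 16 measured, 6 had a positive and 10 a negative difference, with a median of -0.07. ELK3, a partner of serum response factor, differed by 0.66 (adjusted p = 0.340). MAPK3, the kinase ERK1, measured 4.50, 4.20, 5.02 and 4.36 in clones 1 to 4, against 3.96, 3.94, 4.14 and 4.11 in normal animals 1 to 4. Its groups did not overlap on this brightest probe, and it differed by 0.48 (limma, adjusted p = 0.374). On its dimmer probes it differed by 0.52 and 0.48, and the groups overlapped. Of 3 other MAP kinase phosphatases, DUSP6, which acts on ERK, differed by 0.48 (adjusted p = 0.355), but by 0.03 and 0.10 on both dimmer probes, DUSP2 by 0.28 and DUSP10 by -0.12. Of 8 dimer partners and corepressors, 5 had a positive difference and the median was 0.06, with the leucine zipper factor MAF at 0.76 (adjusted p = 0.325), the AP-1 repressor JDP2 at -0.52 (adjusted p = 0.471) and ATF4 at 0.24 (adjusted p = 0.568), with 0.02 and 0.40 on its other probes.

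**Figure D4:**
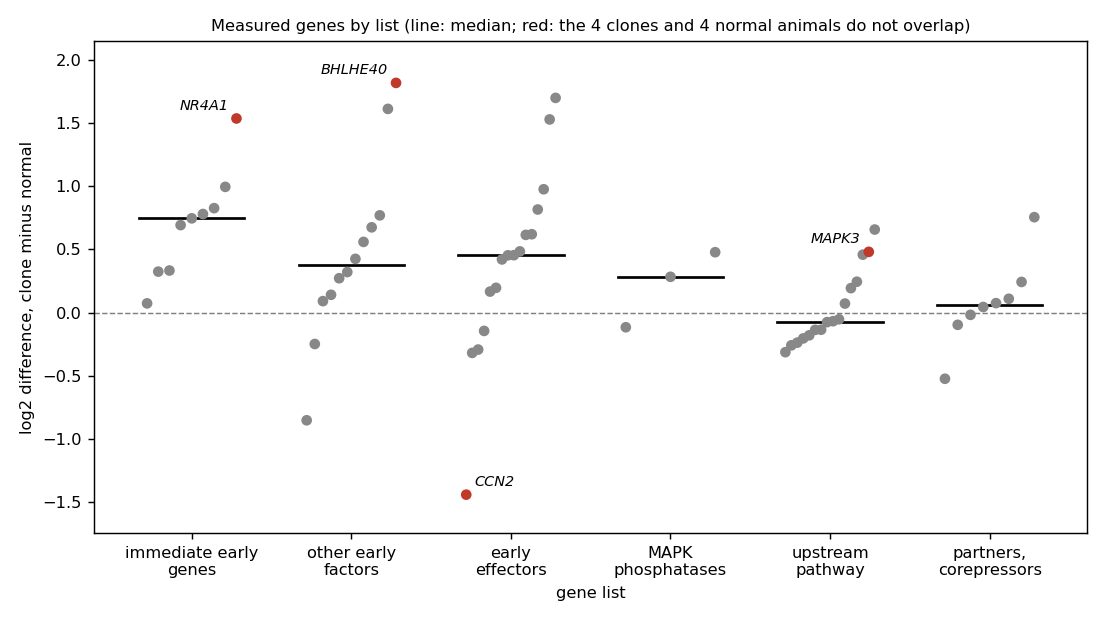
Log2 difference, clone minus normal (vertical axis), of the brightest probe of every measured gene in 6 lists (horizontal axis), with the median of each list as a black line. Red points with names are genes whose 4 clones and 4 normal animals do not overlap. The median is 0.75 for the 9 immediate early genes and -0.07 for the 16 upstream genes.

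Endothelial and erythroid markers varied between the animals, and their part in the level of the list was not tested. Of 5 endothelial markers, 4 were measured, all well above background on all arrays, and 0 passed the test. The log2 of their summed level was 5.07, 6.45, 7.75 and 6.77 in clones 1 to 4, and between 6.38 and 6.58 in normal animals. It was lowest in clone 1, where most immediate early genes were lowest, and highest in clone 3 and not in clone 2. The median deviation of these markers from the normal mean was -1.60, 0.000522, 1.19 and 0.22 in clones 1 to 4. They split in clone 3, where CLDN5, CDH5 and PECAM1 were at their highest, while KDR (1.04) lay below every normal animal (2.03 to 2.58). Of 5 erythroid markers, 4 were measured and 0 passed, and the log2 of their summed level was 7.39, 4.18, 5.56 and 4.69 in clones 1 to 4, against 4.71, 3.87, 5.78 and 4.40 in normal animals 1 to 4. Within each group the animal highest in this sum, clone 1 and normal animal 3, was the lowest in the median of the immediate early genes, and the animal lowest in it, clone 2 and normal animal 2, was the highest. The median deviation of the erythroid markers had the same extremes, at 2.74 in clone 1, -0.49 in clone 2, 1.20 in normal animal 3 and -0.79 in normal animal 2. HBA, HBB and ALAS2 each had these extremes, but AHSP did not. Among normal animals AHSP was highest in animal 2 (-2.01) and lowest in animal 3 (-2.23), and in clones it varied little (-2.13 to -1.99).

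Leukocyte markers varied between the animals too, and their part in the level of the list was not tested. Of 6 neutrophil markers, 5 were measured and 0 passed, with a median difference of -0.68 and a log2 summed level of 1.86 to 4.93 in clones and 3.57 to 4.07 in normal animals. Clone 2 had the lowest neutrophil sum and clone 1 the highest among the clones, as for the erythroid sum, but the markers did not move as 1 group. S100A8 and S100A9 were above every normal animal in clone 1, while CATHL5 and CXCR2 were below every normal animal in all 4 clones, with differences of -2.53 and -0.68 (adjusted p = 0.229 and 0.209). The median deviation of the 5 neutrophil markers was -0.52, -1.74, -0.87 and -0.86 in clones 1 to 4. Of 6 macrophage markers, 5 were measured and 0 passed, with a median difference of -1.24 and sums of 5.57 to 7.66 in clones and 7.34 to 7.94 in normal animals. By sum the lowest clone was clone 1, while the median deviation of the 5 macrophage markers was -0.38, -1.62, -0.00372 and -1.85 in clones 1 to 4, lowest in clone 4, and CD163 was highest of the 8 animals in clone 1. CD68 was below every normal animal in all 4 clones, with a difference of -1.14 (limma, adjusted p = 0.286), while the groups overlapped for the other macrophage markers. The 5 T and NK cell markers summed to 3.05 to 3.63 in clones and 3.27 to 3.67 in normal animals, with a median difference of -0.47. Among them CD8A differed by -2.45 with every clone below every normal animal, and GZMB by 1.25 with 3 clones above every normal animal (limma, adjusted p = 0.176 and 0.180). The 5 fibroblast markers had a median difference of 0.76, with sums of 6.67 to 7.33 in clones and 6.25 to 6.71 in normal animals, and the 4 smooth muscle markers had a median difference of -0.39, with sums of 5.86 to 6.71 in clones and 6.20 to 6.61 in normal animals. None of the marker genes measured was at background on any array.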

How the data were processed

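Per the file headers, each of the 8 deposited scanner files came from Agilent Feature Extraction, which had subtracted the background, and its processed intensity was not yet normalized between arrays. Its version was 10.7, per the submitters' processing notes. The authors' deposited value table of log2 values, which tracked each array at r of at least 0.999, was an alternative with a median of 7.89 in every column; no source used here states how its columns were normalized.

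Control spots and 2 to 21 outlier spots per array, of 43803, were left out, and 0 spots were saturated. Each array's 75th percentile was subtracted from its log2 processed signal, and spots of a probe were averaged. A probe was kept when well above background on at least 4 of 8 arrays. Symbols came from RefSeq accessions (ARS-UCD2.0), and since the array design uses another build no coordinates are given. The brightest kept probe on average represented a gene. Clones were set against normal animals in limma 3.58.1, run in R 4.3.3 (lmFit, eBayes, group as sole term, 2-sided) with Benjamini-Hochberg adjustment over 35636 probes. Each p-value sets the group difference against the spread between animals within the groups, which eBayes moderates over the kept probes.

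On simulated data with 35590 probes each log2 change of 1, 2, 3 and 4 was given to 50 probes, and the fit found 2, 28, 41 and 48 of them in that order, with 7 unchanged probes called. The list and the lists of related genes were chosen with earlier results of these data known. Named were all list genes, the 3 related genes of each list with the smallest p, genes called, and the 8 most and 4 least alike in profile. NR4A2 was added after its values were seen, and 1 gene that the rule names is not reported here. Alternatives were 4 other normalizations or background corrections (normexp used median spot signal with an offset of 50), 2 filters, the authors' table, robust and trended eBayes, weights per array, a block for the replicate number, the mean over probes, each animal left out, and spike-in centring, the last chosen after seeing the data. Same-numbered animals of the 2 groups had deviations that correlated at 0.09, 0.10, -0.20 and -0.10. These values were low but cannot exclude a pairing.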

Additional observations from a re-analysis of the deposited data

Results flagged for a closer look

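NR4A1 in clone 2 lay apart from the other clones. Its level was 5.84 and the nearest clone was at 4.65, a gap of 0.863 of the range of the clones, above Dixon's 95% critical value for 4 samples. This was 1 of 18 groups checked, of which chance alone gives about 1 in 20.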

How the results depend on the processing

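Of 180 values, 9 genes under 20 alternatives, 165 kept their direction and their side of the threshold, 12 changed sign and 3 newly passed. The 3 were NR4A1 without clone 1 and with array weights, and DUSP1 with array weights. ATF3 turned to -0.0208 with quantile normalization, -0.00427 with normexp and quantile normalization, -0.0195 in the authors' table, -0.608 with spike-in centring, -0.763 without clone 2, -0.0865 without clone 3 and -0.233 without normal animal 3; with 1 animal left out it ranged from -0.763 to 0.591. Without clone 2, FOS turned to -0.139, IER2 to -0.0159 and JUN to -0.129, and without clone 1 they were 1.56, 0.667 and 0.841. With spike-in centring IER2 turned to -0.347 and JUN to -0.356; the shift of all probes by -0.68 shows the cause there, while elsewhere the cause was not tested. The median difference of the list was 0.07 with spike-in centring, and with 1 animal left out it ranged from 0.33 without clone 2 to 1.23 without clone 1. The number of list genes that passed was 2 with array weights and ranged from 0 to 1 with 1 animal left out. Of the 55 related genes 12 passed with array weights and 9, all lower, with spike-in centring, with a range of 0 to 2 when 1 animal was left out. Over all probes 63 passed (17 higher and 46 lower), against 0 with normexp and 75th percentile centring (which moved the median of all probes by -0.30), 25 with normexp and quantile normalization, 17 with the filter on all 8 arrays, 146 with trend and robust settings (86 higher and 60 lower), 11524 with array weights, 10249 with spike-in centring (66 higher) and 13 with the replicate block. The block, from numbers not known to pair the animals, changed no call of the list, and 2 of the 4 numbers correlated best with their own. With the block 2 list genes, NR4A1 and EGR1, had an unadjusted limma p under 0.05, against 1 in the main fit. With 1 animal left out the probes that passed ranged from 17 without normal animal 4 to 2562 without clone 1. With 4 animals a group, changes of 1 on the log2 scale were mostly not recoverable, as the simulated data showed. The list was more spread than genes at large (median SD in clones 1.22 against 0.53), so the simulated counts need not hold for it.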

Other observations

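The medians of 2 of the 5 lists of related genes were highest in clone 3, whereas clone 2 was the highest in 8 of the 9 immediate early genes. Relative to the mean of the normal animals, the median over the 16 early effectors was -0.31, 0.72, 1.40 and -0.38 in clones 1 to 4, and over the 12 other early transcription factors it was -0.29, 0.63, 1.68 and -0.30. It was -0.23, 0.50, 0.38 and 0.28 over the 3 MAP kinase phosphatases, highest in clone 2, and 0.06, 0.05, -0.04 and 0.09 over the 16 upstream genes, lowest in clone 3. Over the 8 dimer partners and corepressors it was 0.13, -0.01, 0.09 and 0.11. KLF10, a zinc finger factor induced by TGF-beta, measured 1.66, 3.69, 5.08 and 2.94 in clones 1 to 4, against 2.97, 2.59, 2.34 and 2.77 in normal animals 1 to 4. ZFP36, which speeds the decay of AU-rich messages, measured 1.56, 4.08, 4.08 and 1.57 in clones 1 to 4, against 2.29, 2.45, 1.89 and 2.19 in normal animals 1 to 4. CSRNP1, a nuclear protein of the early response, measured -0.23, 1.09, 3.27 and -1.30 in clones 1 to 4, against 0.92, 1.14, -0.58 and 0.99 in normal animals 1 to 4. The second probe of CSRNP1 had a difference of -0.20, opposite in sign to 0.09 on the first. These 3 genes were chosen after their values were seen, and none of them passed the test between groups (limma, adjusted p = 0.702, 0.735 and 0.978).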
